A study of Mus musculus with 15 samples.

Results

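The nuclear genes of the mitochondrial ribosome were followed in the liver of C57BL/6 mice under 3 feeding regimens. Members are the protein-coding genes of the deposited count table whose symbol starts with Mrpl (large subunit) or Mrps (small subunit) followed by a digit. They number 77 of the 35275 genes of the table, 48 with a large subunit symbol and 29 with a small subunit symbol, and 76 of them passed the filter on low counts that left 13837 genes for testing. Mice were assigned at random to food ad libitum (AL), to intermittent fasting for 16 h (IF16) or to fasting for 24 h every other day (EOD), starting at 3 months of age and ending at 6 months, after 3 months of the regimen. Each regimen has 5 RNA-seq libraries of poly-A RNA from the frozen left lateral lobe. Nothing in the labels ties each library to a mouse of its own, so every p-value measures the spread between libraries, part of which may be technical. In whole liver, fewer cells of a type and less RNA per cell cannot be told apart.

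The mitochondrial ribosome is a separate ribosome inside the organelle that translates only the messages of the mitochondrial genome, all of which encode membrane subunits of the respiratory chain and of ATP synthase. Its RNAs are made in the organelle, whereas all of its proteins are encoded in the nucleus, made on cytosolic ribosomes and imported. Some of them have a counterpart in the bacterial ribosome and others exist only in mitochondria. In structures of the mammalian particle the products of Mrps30 and Mrps18a sit in the large subunit despite their symbols, and the product of Mrps36 has since been described as part of the alpha-ketoglutarate dehydrogenase complex. The counts by subunit below follow the symbols.

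Totals per library lay between 28129883 and 38147534 counts. At that depth 3 counts correspond to 0.078 to 0.107 CPM (the count relative to library size, after scaling for library composition). Hepatocyte markers were abundant in every library, at a summed level of 83065 to 130908 CPM over 6 genes. The 5 markers of sinusoidal endothelium summed to 56.3 to 97.9 CPM in AL, 116 to 131 in IF16 and 119 to 146 in EOD, and the 5 of stellate cells to 89.2 to 160, 115 to 155 and 145 to 228 CPM, with no marker at 0. The part of these differences in the results below was not tested. AL replicates 4 and 5 carried acute phase transcripts at up to 13896 CPM, against at most 265 CPM in IF16 and 86.8 CPM in EOD. EOD replicate 5 stood apart from EOD replicates 1 to 4 in the members themselves, as described below, and in its share of mitochondrially encoded mRNA, which was 10.1% of counts against 5.34% to 6.83%.

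The members were expressed over a wide range. FPKM is here the count over the gene length of the deposited table and the library total. Levels compared between genes on this scale thus depend on that length. Means over the 15 libraries ran from 1.79 FPKM (SD 0.243, n = 15) for Mrpl19 to 219 FPKM (SD 24.3, n = 15) for Mrpl52, a small protein without a bacterial counterpart. Among large subunit genes Mrpl14 at 112 FPKM (SD 18.2, n = 15) and Mrpl20 at 85.3 FPKM (SD 13.2, n = 15) followed at the top, and their values lie apart by more than 1 SD. Mrpl47 at 3.59 and Mrpl3 at 3.76 FPKM stood next to Mrpl19 at the bottom and do not differ from each other beyond their SDs of 0.405 and 1. Among small subunit genes Mrps21 was highest at 96.7 FPKM (SD 13.2, n = 15), above Mrps24 at 62.9 FPKM (SD 13.6, n = 15) and Mrps16 at 56.4 FPKM (SD 10.4, n = 15), while Mrps25 at 3.09, Mrps22 at 5.36 and Mrps26 at 5.86 FPKM were lowest. The 3 paralogs of the bacterial S18 protein were unequal, with Mrps18c at 39.2 FPKM (SD 5.81, n = 15), Mrps18a at 9.71 FPKM (SD 1.42, n = 15) and Mrps18b at 7.19 FPKM (SD 2.21, n = 15). On this scale the messages for proteins of the same particle were thus far from equal in level. The part of the gene lengths in this ranking was not tested. Mrpl53 was listed at 0 counts in all 15 libraries and was not tested. Its span overlaps another gene of the table, and no level can be given for it.

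**Figure D1:**
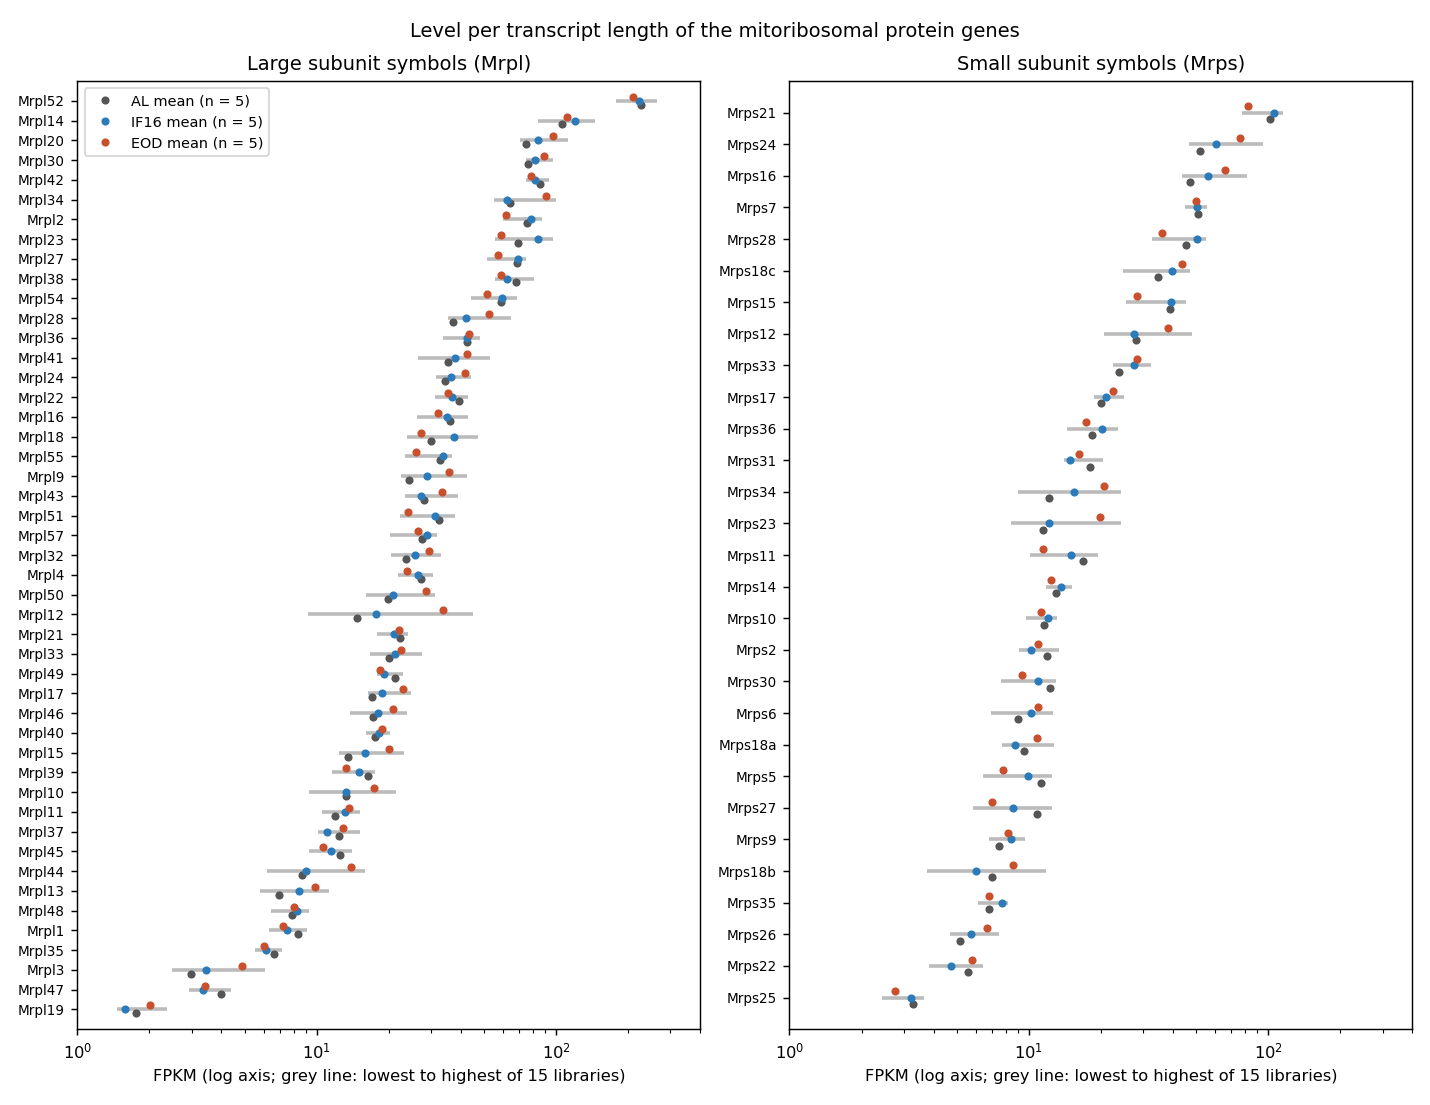
Mean FPKM (log axis) of the 76 members with counts in AL, IF16 and EOD (n = 5 libraries each), large subunit symbols on the left and small subunit symbols on the right, with a grey line from the lowest to the highest of the 15 libraries. Mrpl52 at 219 FPKM and Mrps21 at 96.7 FPKM lead their panels, and for most members the 3 group means lie close together next to the distance between genes.

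The first comparison asked whether 16-h fasting changed these genes. No member passed the test in IF16 against AL (0 of 76, with 3.5% of all tested genes called, 1.4% higher and 2.1% lower, adjusted p under 0.05 in edgeR's quasi-likelihood test with Benjamini-Hochberg adjustment over all tested genes). At an unadjusted p under 0.05 there were 7 of 76, against 18.6% of all tested genes. DESeq2's Wald test called 1 member, beside 6.68% of all tested genes. The median log2 fold change was 0.06 for the large and 0.06 for the small subunit, and -0.000478 over all tested genes. Values ran from -0.33 for Mrps27 to 0.35 for Mrps34.

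Mrps27, a pentatricopeptide repeat protein of the small subunit, came closest, with 19.9 ± 1.51 CPM in AL and 15.9 ± 1.06 in IF16 (mean ± SD, n = 5) and the log2 fold change at -0.33 (SE 0.10, adjusted p = 0.0725). Its libraries did not overlap between IF16 and AL, and it was the member called by DESeq2 (adjusted p = 0.0266). In edgeR it was not called without any one library. Mrps31, another small subunit protein, named after its values were seen, was called in edgeR without AL replicate 2, at -0.33 (adjusted p = 0.0333), and had -0.27 (adjusted p = 0.102) with all libraries. Mrps26 was the other member without overlap, with every IF16 library above every AL library and a log2 fold change of 0.17 (adjusted p = 0.305). Such separation, 1 member in each direction, was seen in 5.78% of all tested genes, 2.59% higher and 3.19% lower. Mrpl18 and Mrpl23, which encode proteins of the large subunit, had log2 fold changes of 0.33 (adjusted p = 0.19) and 0.29 (adjusted p = 0.235).

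Every-other-day fasting gave calls in both directions. In EOD against AL, 32 of 76 members passed, which is 42.1% of them, beside 35.2% of all tested genes. A share this near that of all genes is not a result about the members. By symbol, 14 of 47 large subunit genes were higher and 5 lower, and 6 of 29 small subunit genes were higher and 7 lower. The median log2 fold change was 0.06 in the large subunit, 0.01 in the small subunit and -0.01 over all tested genes, with 41 of the 76 members above 0. The genes of the particle thus did not move as a block: the log2 fold changes spread from -0.62 for Mrps27 to 1.20 for Mrpl12, and 7 members changed by at least 1.5 fold.

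**Figure D2:**
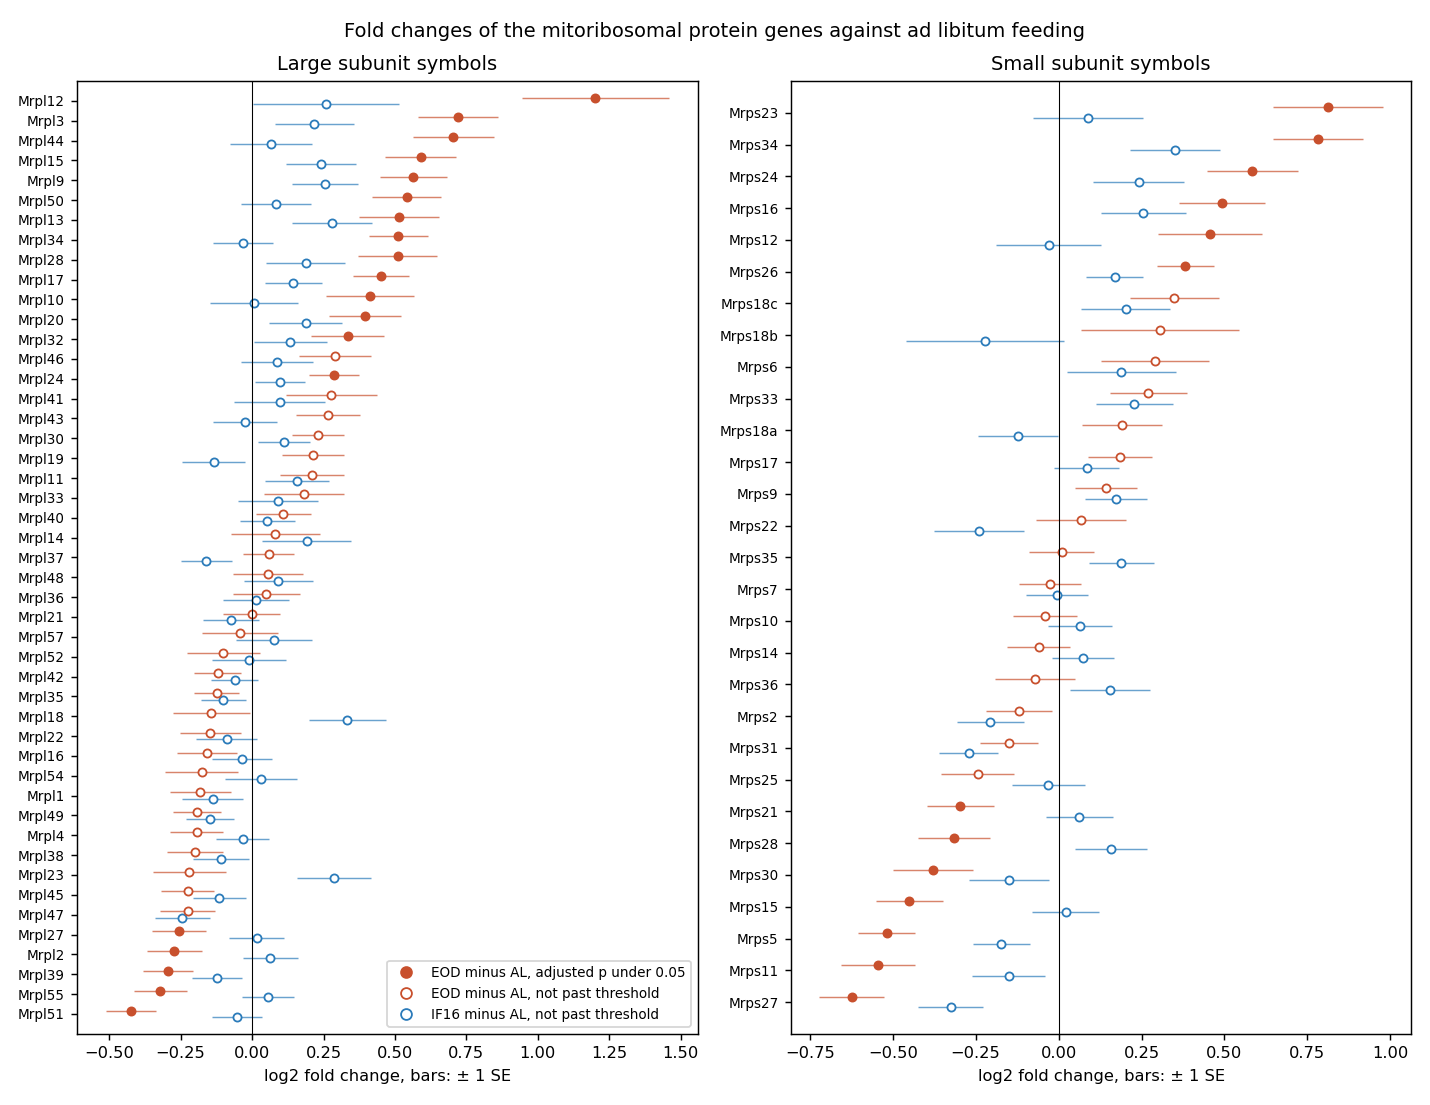
Log2 fold change of each tested member against AL (points, with bars of ± 1 SE), EOD in red and IF16 in blue, filled where adjusted p was under 0.05, ordered by the EOD value within each subunit. EOD values run from -0.62 for Mrps27 to 1.20 for Mrpl12 with 20 members called higher and 12 lower, and no IF16 value is called.

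Among the stalk proteins of the large subunit, Mrpl12 had the largest change of all members. It encodes the counterpart of bacterial L7/L12, which recruits translation factors to the ribosome, and the protein is also known to bind the mitochondrial RNA polymerase. The gene lies at chromosome 11, 120484613 to 120489065, plus strand (mm10, as in the deposited table). Mrpl12 was measured at 26.9, 11.8, 19.6, 19.6 and 19 CPM in AL replicates 1 to 5, at 27.8, 27.7, 24.5, 14.7 and 21.4 CPM in IF16 and at 56.9, 43.9, 62.2, 36.9 and 23.1 CPM in EOD. EOD replicates 1 to 4 lay above all AL and IF16 libraries, whereas EOD replicate 5 fell within both groups. The log2 fold change in EOD against AL was 1.20 (SE 0.26, adjusted p = 0.00232). Mrpl10, which holds the L12 copies at the base of the stalk, rose by 0.41 (adjusted p = 0.0459) on the log2 scale, and Mrpl11, another stalk base protein, had 0.21 (adjusted p = 0.152). The call of Mrpl10 was lost without any one of 11 libraries, AL replicates 2 to 5, IF16 replicates 2, 3 and 5 and EOD replicates 1 to 4 (highest adjusted p 0.12).

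Among called genes for proteins that line the catalytic centre, Mrpl3 rose and Mrpl2 and Mrpl27 fell. Proteins of that region whose genes were not called are not listed. Mrpl3, a core RNA-binding protein (chromosome 9, 105053239 to 105079888, plus strand), was measured at 13.8, 9.63, 12.3, 11.5 and 11.5 CPM in AL replicates 1 to 5, at 14.4, 16, 14.3, 10.4 and 13.3 CPM in IF16 and at 23.8, 19.5, 20.5, 18.7 and 14.4 CPM in EOD. All EOD libraries were above all AL libraries, and EOD replicate 5 was the lowest of the 5. The log2 fold change was 0.72 (SE 0.14, adjusted p = 0.000849). Mrpl2 was measured at 74.1, 86.3, 80.5, 70.1 and 76.6 CPM in AL and at 64.7, 63.3, 68.7, 66.7 and 57.5 CPM in EOD and fell, with a log2 fold change of -0.27 (adjusted p = 0.0346), and Mrpl27 had -0.26 (adjusted p = 0.0442). These were among the less stable calls: Mrpl2 was not called without any one of AL replicates 1, 2, 3 and 5 and EOD replicates 1, 2, 4 and 5 (highest adjusted p 0.0933), and Mrpl27 kept its call only when AL replicate 4 or EOD replicate 4 was left out (highest adjusted p 0.112 in the other 13 fits).

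Single large subunit genes with other known roles were called as well, and are not a full list of any region of the particle. Mrpl24 rose by 0.29 (adjusted p = 0.0173) and Mrpl17 by 0.45 (adjusted p = 0.00212) on the log2 scale, while Mrpl23, at the exit of the peptide tunnel, had -0.22 (adjusted p = 0.193). Mrpl32, whose precursor is cleaved by a protease of the inner membrane before it can join the subunit, rose by 0.33 (adjusted p = 0.0497). Its call was lost without AL replicates 1 to 5, IF16 replicates 2, 4 and 5 or EOD replicates 2 to 4, each taken alone (highest adjusted p 0.127). Another 5 large subunit genes with bacterial counterparts rose: Mrpl15 at 0.59 (adjusted p = 0.00151), Mrpl9 at 0.56 (adjusted p = 0.00134), Mrpl13 at 0.52 (adjusted p = 0.00883), Mrpl28 at 0.51 (adjusted p = 0.00907) and Mrpl20 at 0.39 (adjusted p = 0.0224), the last of which was lost without EOD replicate 3 or 4 (highest adjusted p 0.0656). Mrpl34, a short RNA-binding protein (chromosome 8, 71464926 to 71465752, plus strand), was measured at 45.4, 39.5, 42.6, 35.9 and 42.2 CPM in AL replicates 1 to 5, at 35.7, 41.2, 44.1, 38.9 and 41.2 CPM in IF16 and at 62.8, 59.4, 67.7, 57.2 and 46.2 CPM in EOD. Every EOD library was above every library of the other groups, and Mrpl34 rose by 0.51 (SE 0.10, adjusted p = 0.00122) against AL.

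The remaining large subunit genes that were called split in direction. Mrpl44, which has the fold of ribonuclease III (chromosome 1, 79776018 to 79781445, plus strand), was measured at 13.8, 8.6, 13.8, 11.8 and 13.4 CPM in AL replicates 1 to 5, at 12.8, 13.3, 13.5, 12.3 and 12.4 CPM in IF16 and at 21.5, 20.6, 23.9, 20.5 and 13.8 CPM in EOD. EOD replicates 1 to 4 were above all other libraries and EOD replicate 5 stood at the top of the AL range, and the log2 fold change was 0.70 (SE 0.14, adjusted p = 0.00119). Mrpl50 rose by 0.54 (adjusted p = 0.00253). Mrpl51 (chromosome 6, 125191801 to 125195583, plus strand) went the other way and was measured at 83.7, 101, 91.9, 80.8 and 85.4 CPM in AL replicates 1 to 5, at 79.5, 80.7, 82, 96.1 and 88.9 CPM in IF16 and at 64.4, 62.1, 67.9, 63.7 and 71.5 CPM in EOD. Every EOD library was below every AL and IF16 library, with the log2 fold change at -0.43 (SE 0.09, adjusted p = 0.00143). Mrpl55 fell by 0.32 on the log2 scale (adjusted p = 0.0125) with no overlap between EOD and the other groups, and Mrpl39 fell by 0.29 (adjusted p = 0.0152, and 0.168 without AL replicates 4 and 5 together).

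Called small subunit genes for proteins of the messenger RNA path also split. Proteins of that path whose genes were not called are not listed. Mrps12, a protein of the decoding centre known for antibiotic resistance mutations in bacteria, was measured at 27.9, 17.6, 26.3, 24.7 and 27.2 CPM in AL and at 41.7, 36, 40.9, 28.7 and 22.4 CPM in EOD and rose by 0.46 (adjusted p = 0.0317) on the log2 scale. EOD replicate 5 was again the lowest, within the AL range. Mrps24, near the entry of the messenger channel, rose by 0.58 (adjusted p = 0.00352), and Mrps5, at the same entry (chromosome 2, 127587222 to 127606829, plus strand), fell. Mrps5 was measured at 49.5, 50.2, 56.7, 45.9 and 48.9 CPM in AL replicates 1 to 5, at 45.8, 47, 40.8, 44.9 and 44.4 CPM in IF16 and at 37.2, 33.7, 30.4, 36.9 and 37.2 CPM in EOD, with every EOD library below every other library and the log2 fold change at -0.52 (SE 0.09, adjusted p = 0.000269). Mrps11, at the exit side of that channel (chromosome 7, 78783119 to 78792989, plus strand), was measured at 15.2, 19.9, 18.7, 16.5 and 17.9 CPM in AL replicates 1 to 5, at 12.7, 16.3, 16.7, 17.2 and 16.5 CPM in IF16 and at 10.7, 11.9, 11.2, 14.4 and 12.2 CPM in EOD. Every EOD library was below every AL library, with the log2 fold change of Mrps11 at -0.55 (SE 0.11, adjusted p = 0.00132). Mrps28, which stands in the place of bacterial S1, fell by 0.32 (adjusted p = 0.0314).

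Of the other small subunit proteins with a bacterial counterpart, Mrps15, an RNA-binding protein (chromosome 4, 126046925 to 126055532, plus strand), was measured at 35.8, 45.6, 43.9, 35.1 and 40 CPM in AL replicates 1 to 5, at 35.2, 40.5, 42, 45.7 and 39.8 CPM in IF16 and at 26.6, 26.8, 30.7, 31.9 and 30.7 CPM in EOD. EOD did not overlap either group, and the log2 fold change was -0.45 (SE 0.10, adjusted p = 0.00238). Mrps21 fell by 0.30 (adjusted p = 0.0313), and Mrps16 rose by 0.49 (adjusted p = 0.00695). The call of Mrps21 was lost without AL replicate 2, 3 or 5 or EOD replicate 1, 2 or 5 (highest adjusted p 0.0916), that of Mrps28 without AL replicate 2, 3 or 5 or EOD replicate 1 or 5 (0.091) and that of Mrps12 without AL replicate 2 or 4 or EOD replicate 1, 2 or 3 (0.0913). Those of Mrps21 and Mrps28 were also lost without AL replicates 4 and 5 together (adjusted p = 0.0576 and 0.142).

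Mrps27, whose product has no bacterial counterpart, had the smallest p of all members and is given first among the remaining genes with a small subunit symbol. Mrps27 (chromosome 13, 99344786 to 99415561, plus strand) was measured at 22, 20.6, 18.7, 18.2 and 20.1 CPM in AL replicates 1 to 5, at 16.5, 15, 14.8, 15.8 and 17.3 CPM in IF16 and at 15.1, 13.5, 11.3, 11.8 and 12.8 CPM in EOD. Every AL library was above all libraries of the other groups, which overlapped each other. The log2 fold change in EOD was -0.62 (SE 0.10, adjusted p = 0.000148). Mrps34, needed for the stability of the small subunit (chromosome 17, 24895116 to 24897502, plus strand), was measured at 25, 16.4, 19.2, 28.2 and 25.1 CPM in AL replicates 1 to 5, at 28.2, 32.2, 27.3, 26.9 and 30.8 CPM in IF16 and at 44.8, 39, 40.7, 40.9 and 30.3 CPM in EOD. Its EOD libraries were all above AL, and it rose by 0.78 (SE 0.14, adjusted p = 0.000379). The span of Mrps34 overlaps Mapk8ip3 on the other strand by 2387 bases and Nme3 on the same strand by 1003 bases. Nme3 was listed at 0 counts, and reads in these overlaps cannot be assigned with certainty. Mrps23 (chromosome 11, 88204388 to 88211507, plus strand) was measured at 18.7, 11.5, 15.4, 18.8 and 15.6 CPM in AL replicates 1 to 5, at 18.7, 16.9, 17.2, 14.6 and 17.7 CPM in IF16 and at 33.5, 28, 35.4, 26.4 and 17.3 CPM in EOD. EOD replicates 1 to 4 were above every other library and EOD replicate 5 was within the AL range, with the log2 fold change at 0.81 (SE 0.17, adjusted p = 0.00128). Mrps26 rose by 0.38 (adjusted p = 0.00257) with no overlap, and Mrps30 fell by 0.38 (adjusted p = 0.0219), a call lost without AL replicate 3, without EOD replicate 1, 2 or 3 (highest adjusted p 0.0624) and without AL replicates 4 and 5 together (adjusted p = 0.0553). The S18 paralogs had log2 fold changes of 0.35 (adjusted p = 0.052) for Mrps18c, 0.31 (adjusted p = 0.334) for Mrps18b and 0.19 (adjusted p = 0.227) for Mrps18a.

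**Figure D3:**
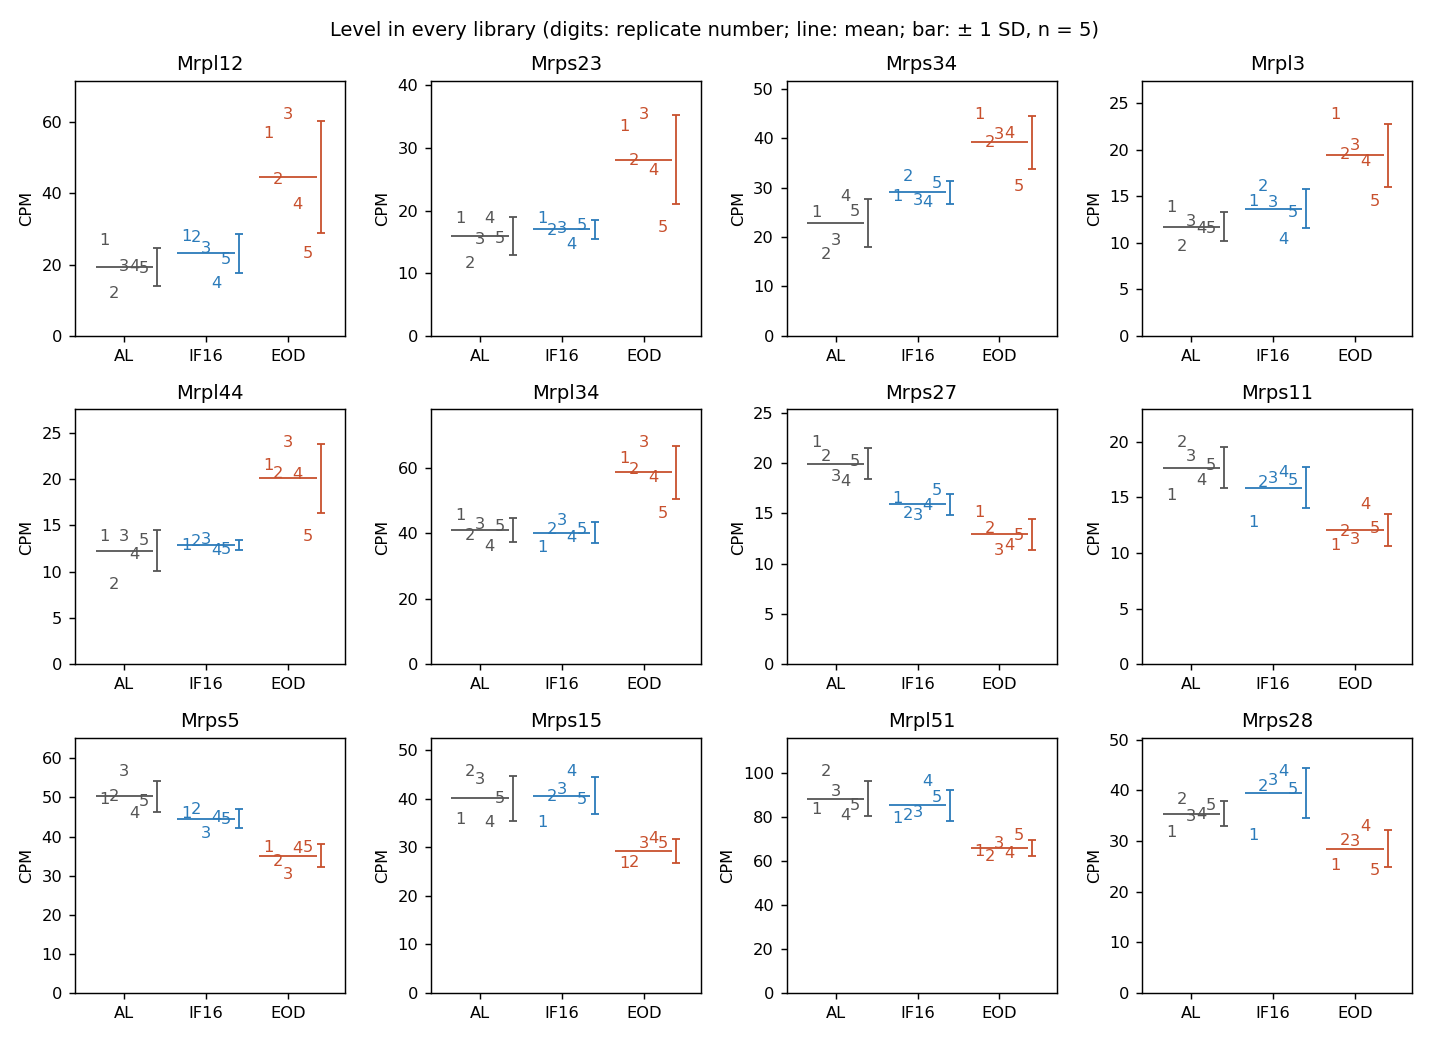
CPM of 12 members in each library (digits give the replicate number), with the group mean (line) and ± 1 SD (bar, n = 5) for AL, IF16 and EOD. In the members that rose, such as Mrpl12, Mrps23 and Mrpl44, EOD replicate 5 lies below EOD replicates 1 to 4 and next to AL, whereas in the members that fell, such as Mrps5 and Mrps15, it lies with the other EOD libraries.

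EOD replicate 5 was the lowest EOD library in all 20 members that rose in EOD, and in 13 of them it lay within the AL range. In all 20, EOD replicates 1 to 4 were above every AL library. Of the 12 members that fell, 8 had EOD replicates 1 to 4 below every AL library, and EOD replicate 5 was within the AL range in 1. These 20 and 12 were picked by the test of EOD against AL itself, which favours such separation. The same counts were not made over the other called genes, so they are not a result about the members. Without EOD replicate 5 the comparison called 39 members, 31 higher and 8 lower, beside 21.7% of all tested genes higher and 19.3% lower. The median over the members was then 0.14, against 0.06 with it. With all libraries, 23 of the 32 calls held when any one of the 15 was left out, and all 32 kept their direction. Groups without overlap were found for 14 of 76 members, 6 higher and 8 lower, beside 18.6% of all tested genes, 8.46% higher and 10.2% lower.

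The proteins with a bacterial name and those particular to mitochondria were both called in both directions in EOD against AL. Of 45 tested genes counted here as carrying the name of a bacterial ribosomal protein, 15 were higher and 7 lower, with a median of 0.14. Of all tested genes, 17.6% were called in each direction. Of 30 counted here as specific to mitochondria, 5 were higher and 5 lower. Their median was 0.03, and it was 0.10 without EOD replicate 5 and 0.00375 without AL replicates 4 and 5. Mrpl55 was counted among the 30, although its product carries a bacterial name in the current nomenclature. No test was made of the difference between these classes.

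The third comparison set EOD directly against IF16. Here 21 of 76 members passed, 27.6% of them, beside 16.1% of all tested genes, with 7 large subunit genes higher and 5 lower and 3 small subunit genes higher and 6 lower. Of all tested genes 7.96% were higher and 8.15% lower. Groups without overlap were found for 6 members, 2 higher and 4 lower, beside 4.63% and 6.26% of all tested genes. EOD libraries enter this comparison and the one against AL alike, so the values are given side by side and are not independent. Mrpl34 had 0.54 (SE 0.10, adjusted p = 0.0022), Mrps23 0.72 (adjusted p = 0.00726), Mrpl44 0.64 (adjusted p = 0.00629) and Mrpl12 0.94 (adjusted p = 0.0213). Mrpl50, Mrpl3 and Mrps34 were also higher, at 0.46 (adjusted p = 0.0167), 0.50 (adjusted p = 0.0203) and 0.43 (adjusted p = 0.038). Lower were Mrps15 at -0.47 (adjusted p = 0.00473), Mrpl51 at -0.37 (adjusted p = 0.00878), Mrpl55 at -0.38 (adjusted p = 0.0111), Mrps5 at -0.35 (adjusted p = 0.0123) and Mrps11 at -0.39 (adjusted p = 0.0234). Mrps12 was also higher, at 0.49 (adjusted p = 0.043). Mrpl2, Mrps21 and Mrps27 were also lower, at -0.34 (adjusted p = 0.0238), -0.36 (adjusted p = 0.0236) and -0.30 (adjusted p = 0.045).

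Called against IF16 and not against AL were Mrpl18, Mrpl23 and Mrpl19. In Mrpl18 and Mrpl23 the mean was highest in IF16, and in Mrpl19, which had 0.35 (adjusted p = 0.0373) against IF16, it was lowest there. Mrpl23, at the exit of the peptide tunnel (chromosome 7, 142532799 to 142540747, plus strand), was measured at 43.2, 57.4, 52.5, 44.9 and 48.2 CPM in AL replicates 1 to 5, at 42.7, 57.4, 63.6, 70 and 66.6 CPM in IF16 and at 38.8, 41, 44, 50.4 and 37.3 CPM in EOD. IF16 replicates 3 to 5 were above all other libraries but IF16 replicate 1 was below all of AL, and the log2 fold change in EOD against IF16 was -0.51 (SE 0.13, adjusted p = 0.0129). Mrpl18, which binds the large subunit RNA, had -0.48 (adjusted p = 0.0237). The pseudogene Mrpl23-ps1 was counted at 75, 69, 68, 72 and 78 reads in AL, at 76, 104, 102, 149 and 118 in IF16 and at 72, 59, 57, 75 and 51 in EOD, so reads of the Mrpl23 sequence may be split between both genes and the level of Mrpl23 is uncertain. Mrps28, called against both groups, was measured at 31.6, 38.2, 34.9, 35.3 and 37.1 CPM in AL replicates 1 to 5, at 31.1, 40.7, 41.9, 43.8 and 40.2 CPM in IF16 and at 25.1, 30.2, 29.9, 32.8 and 24.2 CPM in EOD. It fell by 0.48 against IF16 (adjusted p = 0.00732), and IF16 replicate 1 was the lowest of its group.

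This comparison depended on single libraries more than the one against AL. The count of members called fell to 10 without IF16 replicate 5, 12 without IF16 replicate 4, 12 without EOD replicate 1 and 13 without EOD replicate 2 or 3. The share of all tested genes called fell with it, from 16.1% to 10.2%, 12.6%, 10.4%, 11% and 11.1% in these fits. Without EOD replicate 5 the count rose to 36, of which 26 were higher and 10 lower, beside 24.2% of all tested genes. Called in all 15 such fits were 10 of the 21: Mrpl23, Mrpl34, Mrpl44, Mrpl50, Mrpl51, Mrpl55, Mrps5, Mrps15, Mrps23 and Mrps28. Of the others named above, Mrpl3 was lost without IF16 replicate 5 or EOD replicate 1 (highest adjusted p 0.066), Mrpl12 without IF16 replicate 5 or EOD replicate 1 or 3 (0.0596), Mrpl18 without IF16 replicates 3 to 5 or EOD replicates 1 to 3, each alone (0.0812), Mrps11 without IF16 replicates 2 to 5 or EOD replicates 1 to 3 (0.0685) and Mrps34 without IF16 replicates 1 and 3 to 5 or EOD replicates 1 to 4 (0.0999). Mrpl2 was lost without IF16 replicates 3 to 5 or EOD replicate 2 (0.079), Mrpl19 without IF16 replicate 1, 4 or 5 or EOD replicate 1, 3 or 4 (0.105), Mrps12 without IF16 replicates 1 and 3 to 5 or EOD replicates 1 to 3 (0.121) and Mrps21 without IF16 replicates 3 to 5 or EOD replicate 1 or 2 (0.0758). Mrps27 was lost in 12 of the 15 fits, the exceptions being those without AL replicate 2, AL replicate 4 and EOD replicate 1 (highest adjusted p 0.136). All 21 kept their direction in every fit.

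Many members share their start region with another gene. In the coordinates of the deposited table, 30 of the 76 tested members (39.5%) start within 1000 bases of the start of a protein-coding gene on the other strand, against 15.3% of 12731 tested protein-coding genes. A pair of members, Mrps11 and Mrpl46, are such neighbours on chromosome 7 and overlap by 413 bases. Mrpl46 was measured at 19.8, 14.8, 20.7, 18.8 and 20.8 CPM in AL and at 24, 22.7, 25.6, 27.4 and 16.5 CPM in EOD, and its log2 fold change was 0.29 (adjusted p = 0.0833) beside -0.55 for Mrps11. Mrps12 starts 148 bases from Sars2, the mitochondrial seryl-tRNA synthetase, which had -0.67 (adjusted p = 0.00043) while Mrps12 rose. Mrpl44 and Wdfy1 overlap by 126 bases and had 0.70 and -0.33 (adjusted p = 0.00682 for Wdfy1), and Mrpl13 and Mtbp overlap by 341 bases and had 0.52 and -1.54 (adjusted p = 0.000275 for Mtbp). Mrpl51 and Ncapd2 start 100 bases apart and were both lower, at -0.43 and -0.69 (adjusted p = 0.0392 for Ncapd2), and Mrpl50 and Zfp189, with starts 83 bases apart, were both higher, at 0.54 and 0.75 (adjusted p = 0.000769 for Zfp189). These neighbours other than Sars2 were chosen after their values were seen. Spans of 31 members (40.8%) overlap another gene of the table, against 36.1% of tested protein-coding genes. The sources used here do not say whether strand was used in counting, and reads in the overlaps cannot be assigned with certainty.

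The stretches upstream of the starts were read for 68 of the 77 members from RefSeq sequence of GRCm38.p6, as windows of 250 bases before to 50 bases after the start. Letters of known motifs were searched on both strands, with overlaps between motifs allowed. The site of nuclear respiratory factor 1 (NRF1, searched by its known site), a regulator of many nuclear genes for mitochondria, was found in 13 members (19.1%), against 11.1% of 9959 tested genes in the same table. The core of ETS factors such as GABPA (CCGGAAG) was found in 25 (36.8%) against 19.1%, and that of YY1 (AANATGGC) in 20 (29.4%) against 9.84%. The E-box (CACGTG) was in 5 (7.35%) against 11.6%, the SP site (GGGGCGGGG) in 13 (19.1%) against 24.1%, TATAAA in 5 (7.35%) against 9.32% and the CRE (TGACGTCA) in 2 (2.94%) against 3.46%. NRF1 letters were in 6 of the 17 members found that were higher in EOD, in 2 of the 11 that were lower and in 5 of the 39 not called. ETS letters were in 7, 4 and 13 of these, and YY1 letters in 4, 5 and 11. Members that rose and members that fell thus both held these letters.

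Upstream stretches of 4 members that rose (Mrpl12, Mrpl44, Mrpl3 and Mrpl34) and 2 that fell (Mrps21 and Mrps27) in EOD are shown to let their starts be compared. Each is the 250 bases before the RefSeq start, 5′ to 3′ on the strand of the gene, with the NRF1 or ETS match in capitals (the latter CCGGAAG or its reverse complement CTTCCGG). The NRF1 match begins 81 bases before the start in Mrpl12, 35 in Mrpl44 and 91 in Mrps21, and the ETS match 19 bases before it in Mrpl3, 37 in Mrpl34 and 48 in Mrps27. RefSeq starts are not always those of the deposited table: of 74 windows of the 68 members, 24 have the same start, 41 start downstream of it and 9 upstream. The RefSeq start lies 24 bases inside the gene of the deposited table in Mrpl12, 29 in Mrpl3 and 5 in Mrps21, and is the same in Mrpl44, Mrpl34 and Mrps27. The ETS match of Mrpl3 thus lies after the start given in that table.
Mrpl12 (plus strand), chr11:120484387-120484636: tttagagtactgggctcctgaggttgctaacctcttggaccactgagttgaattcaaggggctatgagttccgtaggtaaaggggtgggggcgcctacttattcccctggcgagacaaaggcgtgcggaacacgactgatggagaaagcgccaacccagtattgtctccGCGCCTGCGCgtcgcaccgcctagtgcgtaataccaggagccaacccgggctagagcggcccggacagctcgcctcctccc
Mrpl44 (plus strand), chr1:79775768-79776017: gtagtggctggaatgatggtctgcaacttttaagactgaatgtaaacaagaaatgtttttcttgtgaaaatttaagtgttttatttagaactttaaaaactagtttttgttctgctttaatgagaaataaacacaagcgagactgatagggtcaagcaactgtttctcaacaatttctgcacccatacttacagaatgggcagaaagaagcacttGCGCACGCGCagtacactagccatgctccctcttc
Mrpl3 (plus strand), chr9:105053018-105053267: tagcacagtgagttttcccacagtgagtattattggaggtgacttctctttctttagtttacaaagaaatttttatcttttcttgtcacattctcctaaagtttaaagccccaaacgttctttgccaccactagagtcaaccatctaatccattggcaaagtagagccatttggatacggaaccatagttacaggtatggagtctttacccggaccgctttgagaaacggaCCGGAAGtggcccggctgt
Mrpl34 (plus strand), chr8:71464676-71464925: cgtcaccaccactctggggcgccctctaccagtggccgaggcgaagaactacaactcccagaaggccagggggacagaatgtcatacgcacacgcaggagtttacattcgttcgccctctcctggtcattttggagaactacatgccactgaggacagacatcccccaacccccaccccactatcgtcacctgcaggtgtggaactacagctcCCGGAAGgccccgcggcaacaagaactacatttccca
Mrps21 (minus strand), chr3:95871515-95871764: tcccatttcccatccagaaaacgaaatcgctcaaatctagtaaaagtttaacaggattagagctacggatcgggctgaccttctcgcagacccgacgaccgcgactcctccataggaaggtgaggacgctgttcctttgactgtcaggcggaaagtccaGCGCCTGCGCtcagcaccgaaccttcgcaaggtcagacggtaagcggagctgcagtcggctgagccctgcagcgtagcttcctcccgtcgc
Mrps27 (plus strand), chr13:99344536-99344785: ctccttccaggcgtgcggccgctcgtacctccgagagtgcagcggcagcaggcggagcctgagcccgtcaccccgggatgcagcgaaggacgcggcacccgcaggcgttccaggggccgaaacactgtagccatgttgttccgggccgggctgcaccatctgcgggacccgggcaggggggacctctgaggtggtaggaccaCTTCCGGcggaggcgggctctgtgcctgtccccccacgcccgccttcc
The stretches shown all hold an NRF1 or ETS match and were taken from members that rose and members that fell. That both directions hold a match here follows from this choice and says nothing on motif and direction. A match of letters is a description of the sequence only.

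Proteins of the particle without an Mrp symbol were also called in both directions. Dap3, a GTP-binding protein of the small subunit, was measured at 38, 39.1, 37.8, 41.1 and 37.5 CPM in AL, at 35.2, 41.1, 37.1, 40.4 and 39.6 CPM in IF16 and at 27.6, 29.1, 31.8, 29.4 and 29.7 CPM in EOD. EOD was below both groups in every library, and Dap3 had -0.39 (SE 0.08, adjusted p = 0.00103) in EOD against AL and -0.39 (SE 0.08, adjusted p = 0.00295) against IF16. Chchd1, of the small subunit, had 0.84 (SE 0.20, adjusted p = 0.00349), and Gadd45gip1, of the large subunit, 0.46 (adjusted p = 0.0207), which was lost without EOD replicate 3 or 4 (highest adjusted p 0.0626). In this list of 6 genes, 2 were higher and 1 was lower, beside 17.6% of all tested genes in each direction. The median was 0.09, which was 0.18 without EOD replicate 5 and 0.15 without AL replicates 4 and 5.

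Factors that build and serve the mitochondrial ribosome were called in both directions, beside 17.6% of all tested genes higher and 17.6% lower. Of 28 tested assembly and RNA processing factors, 7 were higher and 3 lower in EOD than in AL, with a median of 0.15, and without EOD replicate 5 12 were higher and 1 lower. Its 10 of 28 called are near the share of all tested genes, and its median was 0.07 without AL replicates 4 and 5. Ddx28, an RNA helicase of large subunit assembly, was measured at 10.3, 7.11, 9.37, 11.1 and 8.47 CPM in AL and at 18.7, 16.2, 16.6, 18.3 and 15.8 CPM in EOD, where every library was above all of AL, and had 0.89 (SE 0.12, adjusted p = 5.06e-05). Ngrn, needed for the large subunit RNA, and Trmt10c, a part of mitochondrial RNase P, had 0.56 (adjusted p = 0.000431) and 0.74 (adjusted p = 0.00087), and Eral1, which binds the small subunit RNA during assembly, had -0.49 (adjusted p = 0.00431). Of 17 translation factors 2 were higher and 3 lower, with a median of -0.07, which was -0.02 without EOD replicate 5 and -0.00549 without AL replicates 4 and 5. Tsfm, the exchange factor of the elongation factor Tufm, was measured at 18.7, 18.2, 16.6, 15.2 and 17.5 CPM in AL and at 12.2, 10.5, 10.9, 11.8 and 10.1 CPM in EOD, without overlap, and had -0.64 (SE 0.09, adjusted p = 5.59e-05). Lrpprc, which stabilises mitochondrial messages, had -0.34 (adjusted p = 0.00558), and Qrsl1, which makes glutaminyl-tRNA in the organelle, -0.65 (adjusted p = 0.00679).

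Of 17 mitochondrial tRNA synthetases 5 were lower and 1 was higher, with a median of -0.01, which was 0.05 without EOD replicate 5 and 0.05 without AL replicates 4 and 5. Aars2, the alanyl enzyme, was measured at 20.2, 21.2, 18.8, 18.1 and 19.8 CPM in AL and at 10.9, 10.2, 9.1, 10 and 14.8 CPM in EOD, where every library was below all of AL, and had -0.83 (SE 0.12, adjusted p = 7.09e-05). The seryl enzyme Sars2 had -0.67 (adjusted p = 0.00043). Of 19 genes that copy, transcribe or regulate the mitochondrial genome 5 were higher and 1 lower, with a median of 0.18, which was 0.03 without EOD replicate 5 and 0.28 without AL replicates 4 and 5. Tfb2m, a transcription factor of the organelle, had 0.70 (SE 0.13, adjusted p = 0.000572), Peo1, the Twinkle helicase, 0.53 (adjusted p = 0.00159) and Tefm, an elongation factor of mitochondrial transcription, 0.64 (adjusted p = 0.00173). Polrmt, the RNA polymerase itself, had -0.37 (adjusted p = 0.026), lost without AL replicate 1 or 2 or EOD replicate 2 or 3 (highest adjusted p 0.0798). In IF16 against AL none of the genes in these 4 lists of factors passed in edgeR, with 1 of 28, 1 of 17, 3 of 17 and 2 of 19 at an unadjusted p under 0.05. DESeq2 called 1 synthetase and 1 gene of the last list, both lower, beside 4.02% of all tested genes lower in that test. The smallest p of each list belonged to Ngrn at 0.28 (adjusted p = 0.129), Qrsl1 at -0.40 (adjusted p = 0.203), Sars2 at -0.40 (adjusted p = 0.0676) and Gabpb1, a subunit of the GABP transcription factor, at -0.44 (adjusted p = 0.0677).

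Against IF16 the share of all tested genes called was 16.1%, 7.96% higher and 8.15% lower. Of the assembly factors 3 were higher and 2 lower in EOD, of the translation factors 2 and 2, of the synthetases 0 and 3, and of the genes for the mitochondrial genome 4 and 0. Ddx28 had 0.88 (adjusted p = 0.000165) and Trmt10c 0.57 (adjusted p = 0.0123). Tsfm had -0.62 (adjusted p = 0.000229), Lrpprc -0.40 (adjusted p = 0.00489) and Taco1, an activator of cytochrome oxidase translation, 0.69 (adjusted p = 0.0104). Aars2 had -0.55 (adjusted p = 0.00518), and Tefm had 0.53 (adjusted p = 0.0147). Each of these 7 calls held when any one library was left out.

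The messages that the mitochondrial ribosome translates moved in 1 direction. Of 12 tested mitochondrially encoded mRNAs, 11 were lower in EOD than in AL, beside 17.6% of all tested genes. All 12 had a log2 fold change below 0 and the median was -0.81. The mitochondrial ribosomal RNAs were not analysed here. mt-Co2, a core subunit of cytochrome oxidase, was measured at 407, 479, 400, 325 and 342 CPM in AL, at 269, 344, 400, 299 and 269 in IF16 and at 161, 164, 178, 185 and 250 in EOD. EOD did not overlap AL or IF16, EOD replicate 5 was the highest of its group, and mt-Co2 had -1.06 (SE 0.15, adjusted p = 5.33e-05). mt-Atp6, of ATP synthase, and mt-Nd6, of complex I, had -1.10 (adjusted p = 0.000231) and -1.34 (adjusted p = 0.000264). The libraries were made from poly-A RNA, and the part of that selection in the values of these mRNAs was not tested. Without EOD replicate 5, 11 of 12 were again lower, with a median of -1.01. As a share of all counts these mRNAs took 11.5% ± 2.16 in AL, 10.4% ± 1.11 in IF16 and 6.89% ± 1.87 in EOD (mean ± SD, n = 5). The exact two-sided permutation test gave p = 0.0238 for EOD against AL and for EOD against IF16 (adjusted 0.0714 over the 6 tests of shares made), where the smallest p possible is 0.00794.

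Nuclear genes of the respiratory chain, whose products assemble with those messages' products, had 27 of 80 higher and 5 lower in EOD than in AL, with a median of 0.22. Of all tested genes, 17.6% were higher and 17.6% lower. Without EOD replicate 5 there were 39 higher and 3 lower, beside 21.7% of all tested genes higher and 19.3% lower. Cox7a2l, which joins respiratory complexes, Ndufb8, of complex I, and Uqcrh, of complex III, had 0.87 (adjusted p = 0.000142), 1.17 (adjusted p = 0.000166) and 0.84 (adjusted p = 0.00023). In IF16 against AL 1 of the 80 was higher, beside 1.4% of all tested genes. This was Atp5k, with 0.50 (adjusted p = 0.0325). That call was lost without any one of AL replicates 1 to 5 and IF16 replicates 2 to 5 (highest adjusted p 0.122). DESeq2 called 5 higher, beside 2.66% of all tested genes higher in that test. Of 82 genes of the cytosolic ribosome, 74 were higher in EOD than in AL and 2 had a log2 fold change below 0, with a median of 0.60. In IF16 4 of them were higher, with a median of 0.27, beside 1.4% of all tested genes higher. The count was 8 without EOD replicate 5 (1.9% of all tested genes higher) and 10 without IF16 replicate 1 (1.8%). The smallest p among the 4 was that of Rpl22l1, at 0.84 (adjusted p = 0.0143), which held without any one library. The other 3 calls did not: Rps28 was lost without any one of 5 libraries (AL replicates 1 and 3 and IF16 replicates 3 to 5), Rps29 without any one of 7 (AL replicates 1 to 3 and IF16 replicates 2 to 5) and Rps27 without any one of 10 (AL replicates 1 to 5, IF16 replicates 2 to 5 and EOD replicate 2), with a highest adjusted p of 0.0746, 0.105 and 0.127. In EOD against AL Rps27, Rps9 and Rpl9 had 1.07 (adjusted p = 2.47e-05), 1.08 (adjusted p = 2.9e-05) and 1.59 (adjusted p = 4.38e-05). The lists are set side by side as a description, with no test of the difference between them.

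**Figure D4:**
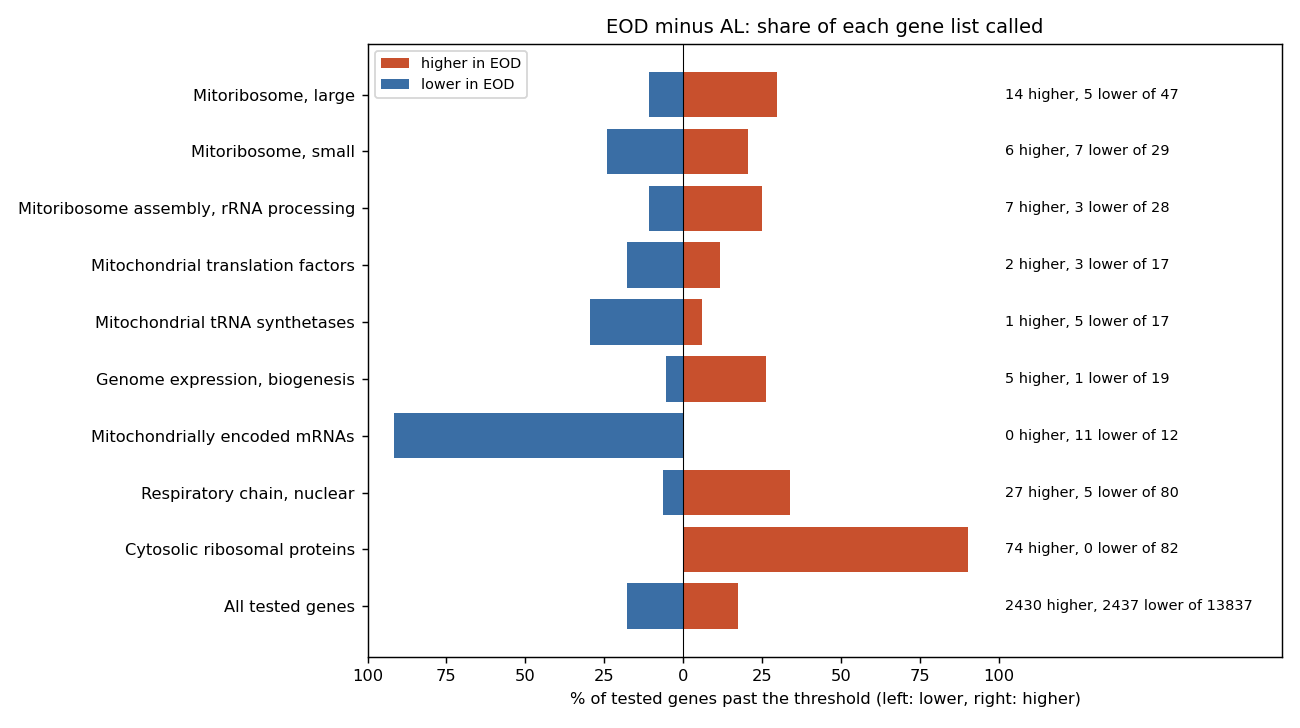
Share of the tested genes of each list called higher (right, red) or lower (left, blue) in EOD against AL, in percent, with counts at the right and all tested genes at the bottom. Mitoribosomal genes are called on both sides (20 higher and 12 lower), cytosolic ribosomal genes on the right only (74 of 82) and mitochondrially encoded mRNAs on the left only (11 of 12).

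Library by library, the median of the members stayed close to their overall mean. After each gene's mean log2 CPM over the 15 libraries was subtracted, the large subunit median was -0.08 to 0.01 in AL, -0.14 to 0.11 in IF16 and -0.19 to 0.22 in EOD, and the small subunit median was -0.06 to 0.06, -0.13 to 0.09 and -0.20 to 0.10. EOD replicate 4 was the highest library and EOD replicate 5 the lowest for both subunits, so the groups overlapped in full. In EOD replicate 5 only 5 of the 76 members were above their mean, and in IF16 replicate 1 only 11 were, against 20 to 58 in the other libraries. The cytosolic ribosomal median ran from -0.52 to -0.16 in AL and from -0.06 to 0.60 in EOD, where EOD replicate 5 was again lowest.

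**Figure D5:**
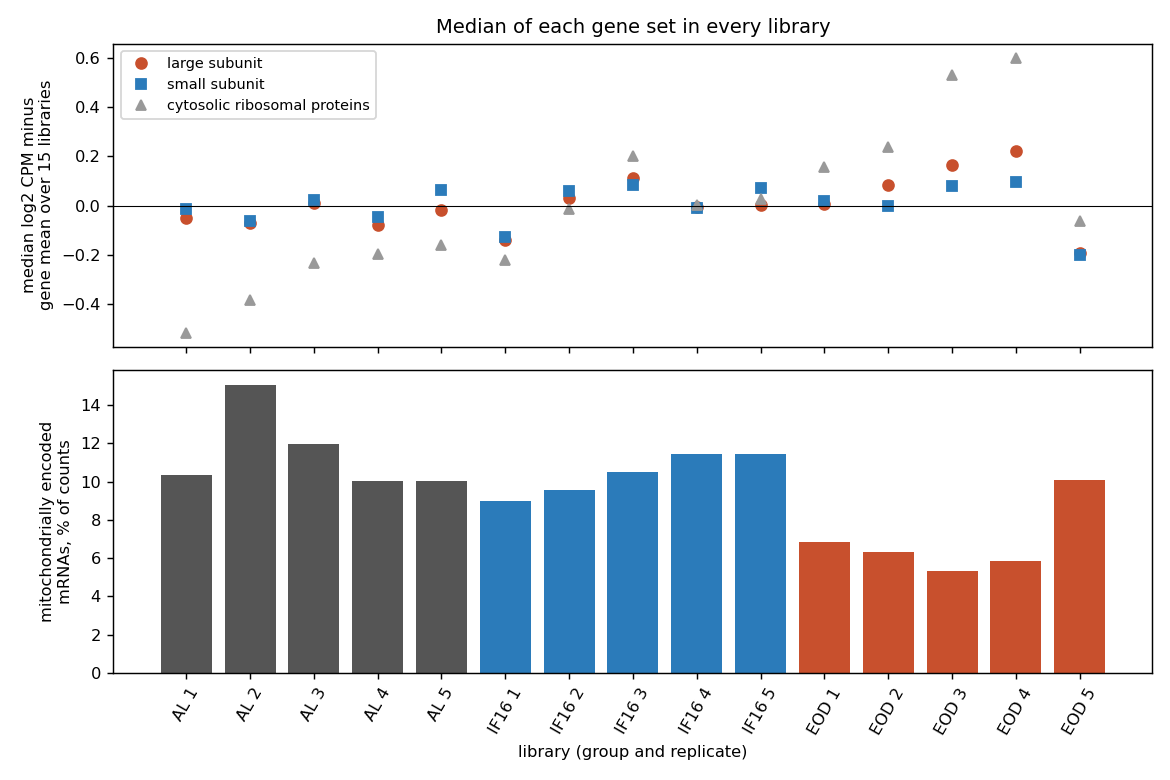
Upper panel, median log2 CPM of the large subunit, small subunit and cytosolic ribosomal protein genes in each library after subtraction of the gene means over 15 libraries; lower panel, mitochondrially encoded mRNA as a percentage of counts. EOD replicate 5 is lowest for both subunits (-0.19 and -0.20) and, at 10.1%, has a mitochondrial share like that of the AL libraries.

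Together the 77 members took 0.285% ± 0.00860 of counts in AL, 0.294% ± 0.0105 in IF16 and 0.301% ± 0.0194 in EOD (mean ± SD, n = 5). The exact two-sided permutation test gave p = 0.159 for IF16 against AL, 0.135 for EOD against AL and 0.516 for EOD against IF16 (adjusted 0.238, 0.238 and 0.516 over the 6 tests of shares). The total was therefore not distinguishable between regimens beyond the spread of the libraries, which does not show that it was equal.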

How the data were processed

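Liver poly-A RNA of 15 libraries, 5 per regimen, was sequenced. Per the labels' protocols, libraries were made with a NEBNext Ultra kit. The submitters' processing notes name STAR 2.5, HTSeq 0.6.1, DESeq2 and mm10, giving none of them a role. The authors deposited raw counts per Ensembl gene, used for all tests, and FPKM values, used to compare levels between genes. Every deposited FPKM value (100%) equals the count over gene length and library total, with a relative tolerance of 1e-08.

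Tests used edgeR 4.0.16 in R 4.3.3 on counts. filterByExpr with a minimum count of 10 left 13837 genes, libraries were scaled by TMM, and all 3 groups shared 1 quasi-likelihood fit without covariates (common biological coefficient of variation 0.211). Adjusted p-values come from this fit with Benjamini-Hochberg adjustment over all tested genes, with calls under 0.05, except where another tool is named. SE is the log2 fold change over the square root of F. The scripts were tested on simulated data. Shares of counts were compared by exact permutation of libraries. No library was a copy of another: over 30 pairs within groups, chi-square over its degrees of freedom was 24.9 to 219.

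Alternatives were DESeq2 size factors, the DESeq2 1.42.0 Wald test, no filter, 1 CPM in 5 libraries, the compared groups alone, a block for the replicate number, leaving out each library, and limma 3.58.1 on log2 of FPKM plus 1 or 0.1. Leaving out AL replicates 4 and 5 together, and the fits of related lists without single libraries, were chosen after seeing the data.

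The members and the related lists were chosen with earlier results of these data known. All members were counted. Named with values were up to 6 called members with the smallest p per comparison, subunit and direction, the 3 highest and 3 lowest in FPKM per subunit, the Mrps18 paralogs, and per related list up to 3 called genes with the smallest p, or the 1 with the smallest p where none was called. For the lists this was carried out for EOD against AL, except for 1 gene that is not reported here, and in part for the other comparisons. Mrpl10, Mrpl11, Mrpl13, Mrpl24, Mrpl28, Mrpl32, Mrpl46, Mrpl53, Mrps31, Mrps36, Polrmt, Eral1 and the neighbouring genes were named after their values were seen. Coordinates of genes are those of the deposited table. No upstream window was read for Mrpl4, Mrpl13, Mrpl15, Mrpl19, Mrpl38, Mrpl54, Mrps28, Mrps34 and Mrps35.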

Additional observations from a re-analysis of the deposited data

Results flagged for a closer look

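Within groups of 5 libraries, the gap between the lowest or highest value and its neighbour was set against the whole range for 38 genes and 4 values of whole libraries (the median of each subunit, the members' share of counts and the share of mitochondrially encoded mRNA). Of these 126 groups, 3 had a library far from the others. Chance alone marks about 1 in 20 such groups. Mrpl17 in EOD replicate 5 stood at 67.6 CPM, against 93.3 to 95.7 CPM in the other EOD libraries. Mrps11 in IF16 replicate 1 stood at 12.7 CPM, against 16.3 to 17.2 CPM in the other IF16 libraries. Mrps28 in IF16 replicate 1 stood at 31.1 CPM, against 40.2 to 43.8 CPM. These are the libraries in which the fewest members lay above their mean over all libraries, 5 of 76 in EOD replicate 5 and 11 of 76 in IF16 replicate 1.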

How the results depend on the processing

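In IF16 against AL the count of members called stayed at 0 except for 1 with the DESeq2 Wald test (Mrps27) and 1 without AL replicate 2 (Mrps31) (0 to 1 over the libraries left out in turn). These 2 fits called 6.68% and 3.77% of all tested genes. In EOD against AL it was 32, with 25 to 39 over left-out libraries and 26 to 34 in the other settings. The share of all tested genes called ran from 27.95% to 41% and from 18.1% to 39.3% in these fits. In EOD against IF16 the count of members was 21, with 10 to 36 over left-out libraries and 15 to 23 otherwise. The share of all tested genes then ran from 10.2% to 24.2% and from 6.85% to 19.8%. The median log2 fold change over the members ran from 0.02 to 0.10, from 0.01 to 0.14 and from 0.01 to 0.12 over left-out libraries in the 3 comparisons. With the replicate number as a block, 0, 29 and 18 members were called, beside 3.56%, 34.8% and 16.1% of all tested genes. No pairing of the libraries by number was evident, which does not exclude it. Deviations of the 15 same-numbered pairs had a median correlation of 0.05 (-0.13 to 0.22), with 5 over 0.1. The 60 other pairs had a median of -0.00498 (-0.27 to 0.35), with 12 over 0.1. Without AL replicates 4 and 5 together, 0, 28 and 20 members were called, beside 2.59%, 30.3% and 16.8% of all tested genes. Single values were followed over all comparisons and settings for the 38 members that the naming rule gave. Of these values, 2672 kept their side of the threshold, 150 lost their call, 28 gained one and none reversed. The 2672 include values called in neither fit, and many of the 38 were picked for a small p. Members outside the rule, such as Mrpl10 and Mrpl32, are not in these counts. With 5 libraries per group, many calls near the threshold rest on single libraries: 23 of 32 calls against AL and 10 of 21 against IF16 held without any one library.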
